A study of Homo sapiens with 6 samples.

Results

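The genes described here take iron into the cell, store it, export it and sense it. They are 10 named genes of the 23686 in the deposited count tables: TFRC, STEAP3 and SLC11A2 for uptake, FTH1, FTL and NCOA4 for storage and release, SLC40A1 for export, and IREB2, ACO1 and FBXL5 for sensing. They were chosen by name for their role, with earlier results of these data known, and all 10 were read off the reverse-strand counts of every library. All 10 passed the filter on low counts, with between 557 and 12441 reads per library.

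Ferrous iron turns hydrogen peroxide into the hydroxyl radical, and cells therefore keep free iron low. Transferrin-bound iron enters through the transferrin receptor, is reduced in endosomes by a STEAP reductase and passes to the cytosol through the carrier DMT1, the product of SLC11A2. Surplus iron is held in ferritin, a shell built of FTH1 and FTL chains, or leaves through ferroportin, the product of SLC40A1. The iron regulatory proteins, products of ACO1 and IREB2, bind hairpins called iron-responsive elements (IREs) when iron is scarce. Binding at the start of a ferritin or ferroportin mRNA blocks translation, and binding at the end of the TFRC mRNA protects it from decay.

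RNA was measured in 6 libraries from HEK293 cells, an established human embryonic kidney line, and all sampled cells were GFP+. The co-culture group (n = 3) had spent 10 h beside HEK293 cells that carried DAAO, the D-amino acid oxidase that makes hydrogen peroxide from D-alanine, here at 25 µM, and GFP-positive cells were then sorted. The control group (n = 3), titled "Wt controls", was GFP-positive and sorted too. The labels describe 1 treatment for every sample, so whether controls received D-alanine or partner cells is not given. Nothing in the labels says that replicates were separate cultures, so the p-values measure the spread between these samples, which may be technical.

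Libraries held 19091085 to 36250314 gene reads, so 1 read was worth 0.0279 to 0.0522 CPM, the count scaled to a common library total. The HEK293 markers NEFL, NEFM, CDH2 and VIM were present at 66.2 CPM or more in every library, PAX2 and LHX1 at 5.80 CPM or more, and HBB and HBG1, of the erythroid markers, had 0 reads throughout. Markers of leukocytes, hepatocytes and fibroblasts stayed at or under 0.455 CPM, except LUM, at 5.90 to 7.65 CPM in co-culture and 9.35 to 11.6 CPM in controls; its part in the results was not tested. Libraries differ by a technical measure: the median share of forward-strand reads was 0.124% and 0.211% in co-culture libraries 2 and 3 and between 1.57% and 1.75% in the other 4. Reads that map to several places made up 8.42% of co-culture library 1 and 6.48% to 7.03% of the others. These are bulk values, so fewer cells with a transcript and less of it per cell cannot be told apart, and iron, protein and translation were not measured.

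Hairpin sequences are shown because the iron-responsive element is the known link between the iron regulatory proteins and some of these mRNAs. The search finds a sequence pattern, and binding was not measured. GENCODE release 29 coding transcripts were searched in the sense direction for a C, any 5 bases, the loop CAGTGN and 5 further bases, and the 5 positions on either side of the loop were scored for pairing, with G-T allowed. All 5 pairs formed in 4 of the 10 genes, FTH1, FTL, TFRC and SLC40A1, against 1.48% of 19669 coding genes. The pattern follows the known form of the IRE and the genes were chosen for their iron role, so this contrast is not a test. Each window is 30 bases, read 5′ to 3′ on the mRNA strand, with the loop of 6 bases in capitals:
FTH1 IRE: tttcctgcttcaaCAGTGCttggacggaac
FTL IRE: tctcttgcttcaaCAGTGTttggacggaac
SLC40A1 IRE: ccaacttcagctaCAGTGTtagctaagttt
TFRC IRE a: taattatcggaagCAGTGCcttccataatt
TFRC IRE b: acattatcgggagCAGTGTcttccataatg
TFRC IRE c: tctgtatcggagaCAGTGAtctccatatgt
TFRC IRE d: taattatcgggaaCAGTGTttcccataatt
SLC11A2 IRE, 4 of 5 pairs: tagccatcagagcCAGTGTgtttctatggt

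The windows of FTH1 (chr11:61967574-61967603, minus strand), FTL (chr19:48965334-48965363, plus strand) and SLC40A1 (chr2:189580661-189580690, minus strand) lie in exon 1, in the 5′ UTR, on GRCh38. Those of TFRC lie in exon 19, in the 3′ UTR, on the minus strand of chromosome 3, at chr3:196050979-196051008, chr3:196050575-196050604, chr3:196050510-196050539 and chr3:196050463-196050492. The letters a to d only give their order along the mRNA, and elements that depart from the searched pattern would be missed. The SLC11A2 window (chr12:50988269-50988298, minus strand) is in the 3′ UTR of 5 of 18 coding transcripts, since only some of its isoforms keep that end. Matches with 4 of 5 pairs also lay in the 3′ UTRs of IREB2 and ACO1, and 11.2% of all coding genes hold a match of at least that quality, so those letters alone describe a common pattern. These coordinates come from the annotation and not from the authors' alignment, whose build is named as hg18.

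Per kilobase of transcript, ferritin mRNA stood above the rest. FTL led at 386 ± 34.2 CPM per kb in controls and 355 ± 39.8 in co-culture (SD, n = 3 each), followed by FTH1 at 198 ± 17.0 and 170 ± 36.1. NCOA4, the receptor that carries ferritin to autophagy, was the third at 81.6 ± 5.32 and 79.1 ± 5.37. The first 3 did not overlap with their neighbours in any library.

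TFRC and IREB2 shared the next level, at 57.0 ± 3.67 and 50.0 ± 6.13 CPM per kb in controls. Their ranges overlapped there, while in co-culture every IREB2 value, from 51.6 to 55.6, exceeded every TFRC value, from 50.3 to 50.6. SLC11A2 followed at 18.8 ± 0.812 CPM per kb in controls. FBXL5 and STEAP3 changed places: STEAP3 ran from 11.8 to 13.7 CPM per kb in controls, under the 13.9 to 15.6 of FBXL5, and from 15.2 to 16.2 in co-culture, over its 13.5 to 14.0. SLC40A1 and ACO1 were lowest, at 8.86 ± 0.371 and 7.65 ± 0.144 CPM per kb in controls, and overlapped in co-culture. These orders rest on the length of 1 principal transcript per gene, which may not be the isoform HEK293 cells use. Reads that map to several places were not counted. The levels of FTL and FTH1, which have many processed pseudogenes, may therefore be too low by an unknown amount that differs between them.

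**Figure D1:**
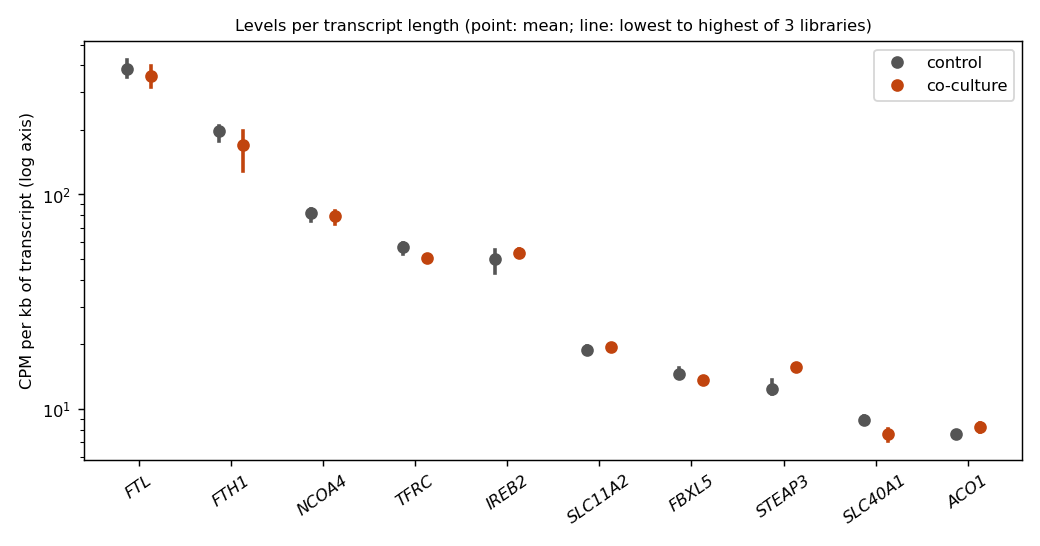
Level of each of the 10 iron genes in CPM per kilobase of its principal transcript, on a log axis, with the mean as a point and a line from the lowest to the highest of 3 libraries per group. FTL and FTH1 lie above 129 in every library, and STEAP3 is the gene that moves past a neighbour, FBXL5, without overlap in either group.

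These transcripts differed little between the groups. In the edgeR quasi-likelihood fit of 14582 genes, with p-values adjusted over all of them, 1 of the 10 had an adjusted p under 0.05, STEAP3, which was higher. Over all tested genes 4.83% passed, 2.66% higher and 2.17% lower, so 1 gene in 10 is little above the background. The groups did not overlap for 4 of the 10, STEAP3 and ACO1 higher and TFRC and SLC40A1 lower in co-culture, against 29.3% of all genes, 14.3% higher and 15.0% lower. At an unadjusted p of 0.05 there were 3, STEAP3, TFRC and SLC40A1, against 23.2% of all genes. The median log2 fold change of the 10 was -0.07, against -0.00 over all genes.

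**Figure D2:**
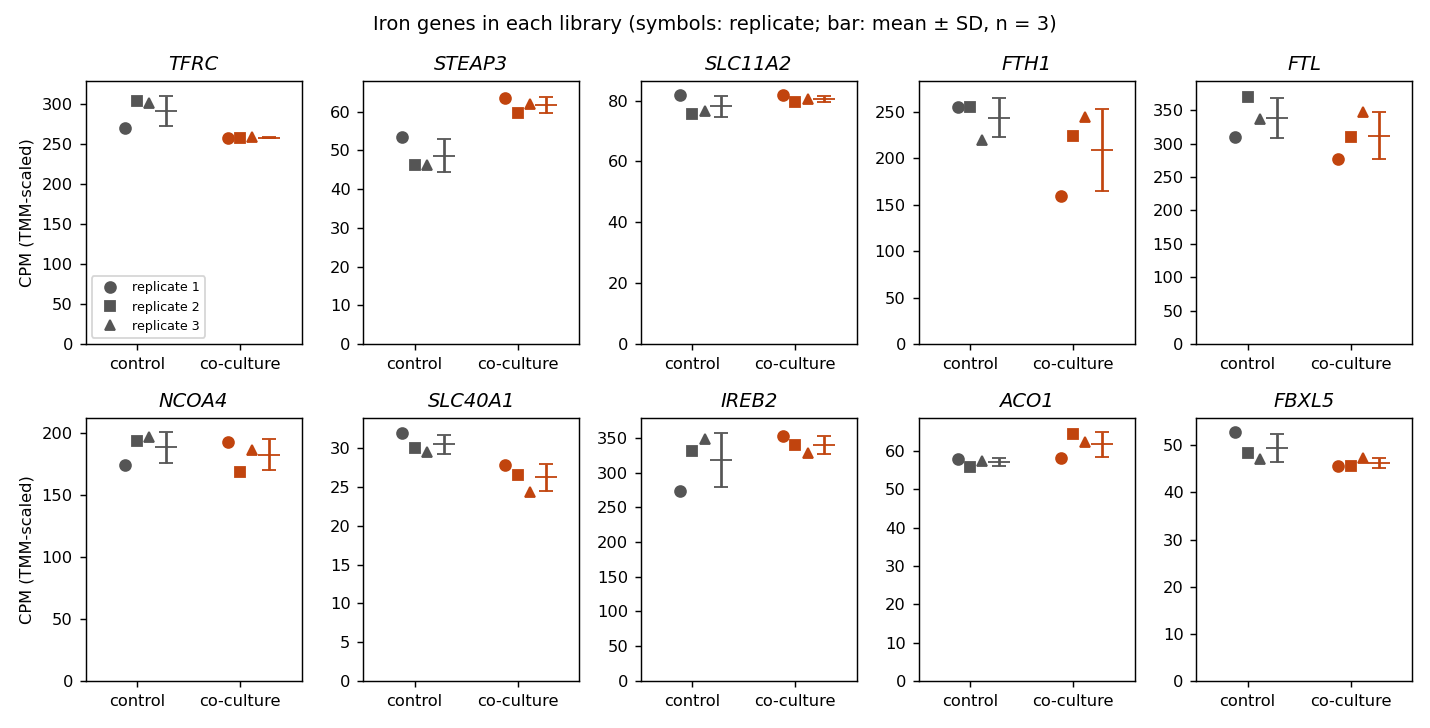
CPM of each gene in each library (TMM-scaled, axis from 0), grouped as control and co-culture, with symbols for replicates 1 to 3 and the mean ± SD beside them. STEAP3 and ACO1 are higher and TFRC and SLC40A1 lower in every co-culture library than in any control, and co-culture library 1 is the lowest for FTH1.

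STEAP3 encodes the endosomal ferrireductase that turns ferric into ferrous iron after transferrin uptake, and it is also known as a p53-inducible gene. It stood at 63.5, 59.5 and 62.1 CPM in co-culture libraries 1, 2 and 3 and at 53.5, 46.2 and 46.2 CPM in controls 1, 2 and 3. Every co-culture library was above every control, with control 1 the nearest. The log2 fold change was 0.34 (SE 0.07, 95% interval 0.18 to 0.51), a rise of 26.9%, with an edgeR adjusted p of 0.0287. Its place among all genes ordered by p was 362.

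The STEAP3 call depended on single libraries. Its direction could not turn when 1 library was left out, since the groups did not overlap. Without co-culture library 1, 2 or 3 the edgeR adjusted p was 0.134, 0.127 and 0.0815, and without control 2 it was 0.147, at log2 fold changes between 0.31 and 0.37. Without control 1 it was 0.000174, at 0.42. With the class of forward-strand share as a batch term the log2 fold change was 0.39 (edgeR adjusted p 0.236). Only co-culture library 1 carries the comparison in that fit, and its 63.5 CPM exceeded all 3 controls of the same class.

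TFRC encodes the transferrin receptor, the main door for iron in dividing cells. Its values were 257, 258 and 258 CPM in the co-culture libraries and 270, 304 and 300 CPM in controls 1, 2 and 3. The co-culture values were almost identical, with an SD of 0.768 CPM, and lay under the lowest control, control 1. This is a log2 fold change of -0.18 (SE 0.06, 95% interval -0.32 to -0.04), with an edgeR adjusted p of 0.127, and so missed the threshold. It passed in 2 of 14 other settings: with total counts in place of trimmed means (-0.21, edgeR adjusted p 0.0487) and without control 1 (-0.23, edgeR adjusted p 0.00291). In these settings 6.05% and 20.8% of all tested genes passed, against 4.83% in the fit above. Total counts also moved the log2 fold changes of all genes by a median of -0.03.

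SLC11A2, the gene of the ferrous iron carrier DMT1, gave 81.7, 79.7 and 80.4 CPM in co-culture and 81.9, 75.6 and 76.7 CPM in controls. The groups overlapped, since control 1 was the highest of the 6. Its log2 fold change was 0.05 (95% interval -0.08 to 0.18, edgeR adjusted p 0.685). Counts per gene do not separate the isoforms with and without the IRE.

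FTH1 encodes the heavy ferritin chain, which oxidises ferrous iron as it enters the shell. It stood at 159, 224 and 244 CPM in co-culture libraries 1, 2 and 3 and at 255, 255 and 219 CPM in the controls. Co-culture library 1 was the low value, and the other co-culture libraries lay within the control range. The log2 fold change was -0.22 (95% interval -0.56 to 0.12, edgeR adjusted p 0.414), the widest interval of the 10. Without co-culture library 1 it was -0.05 (edgeR adjusted p 0.806), and in the fit with the strand class, which compares that library with the controls, it was -0.61 (edgeR adjusted p 0.100).

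FTL encodes the light chain, which helps the iron core form. Its values were 278, 310 and 348 CPM in co-culture and 310, 370 and 336 CPM in controls, so the groups overlapped and co-culture library 1 was again the lowest of the 6. On the log2 scale the change was -0.12 (95% interval -0.32 to 0.08, edgeR adjusted p 0.458), and it was -0.04 without co-culture library 1. Ferritin genes have many processed pseudogenes, and reads shared with them are not counted per gene. Co-culture library 1 also had the highest multimapping share, 8.42%, and the part of that share in the FTH1 and FTL values was not tested. The pseudogene row with most reads, FTH1P3, held 21 reads over all 6 libraries.

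NCOA4 stood at 193, 169 and 186 CPM in co-culture and at 174, 194 and 197 CPM in controls, and the groups overlapped. Its log2 fold change was -0.05 (95% interval -0.20 to 0.11, edgeR adjusted p 0.742), and the sign turned in 2 of 14 other settings, none of which passed the threshold. Forward-strand reads made up 4.21% of the reads over NCOA4, the highest share of the 10 genes.

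SLC40A1 encodes ferroportin, the known exporter of iron from cells. It gave 27.9, 26.6 and 24.4 CPM in co-culture and 31.9, 30.0 and 29.5 CPM in controls, from 557 to 873 reads per library. Every co-culture value was under every control. Its change of -0.22 on the log2 scale (SE 0.08, 95% interval -0.39 to -0.05) had an edgeR adjusted p of 0.129, and none of 14 other settings brought it under 0.05, with a range from 0.0922 to 0.680.

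The 4 genes with a fully paired IRE, FTH1, FTL, TFRC and SLC40A1, all had negative log2 fold changes, at -0.22, -0.12, -0.18 and -0.22. None of them passed the threshold, and 7353 of the 14582 tested genes were negative too. The sign stayed negative for each of the 4 in all 14 other settings, but these reuse the same libraries and so add no support. Without co-culture library 1, FTH1 and FTL stood at -0.05 and -0.04. The element lies in the 5′ UTR in FTH1, FTL and SLC40A1 and in the 3′ UTR in TFRC.

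IREB2, iron regulatory protein 2, is removed by the proteasome when iron is plentiful. Its mRNA was at 353, 339 and 328 CPM in co-culture and 274, 331 and 349 CPM in controls. Control 1 was far below the other 5 libraries, and the groups overlapped. The log2 fold change was 0.10 (95% interval -0.09 to 0.29, edgeR adjusted p 0.533), and it was 0.00 without control 1.

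ACO1, iron regulatory protein 1, is a cytosolic aconitase while it carries an iron-sulphur cluster, which peroxide signalling can affect. It stood at 58.1, 64.5 and 62.4 CPM in co-culture and at 57.9, 55.9 and 57.5 CPM in controls. The groups did not overlap, but co-culture library 1 was barely above control 1. Its log2 fold change was 0.11 (95% interval -0.03 to 0.25, edgeR adjusted p 0.323), and 0.03 in the fit with the strand class.

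FBXL5 is the iron-binding subunit that directs IREB2 to degradation. Its values were 45.6, 45.6 and 47.4 CPM in co-culture and 52.8, 48.3 and 47.2 CPM in controls. Co-culture library 3 was just above control 3, so the groups overlapped. Co-culture minus control, the log2 change was -0.10 (95% interval -0.25 to 0.05, edgeR adjusted p 0.429).

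**Figure D3:**
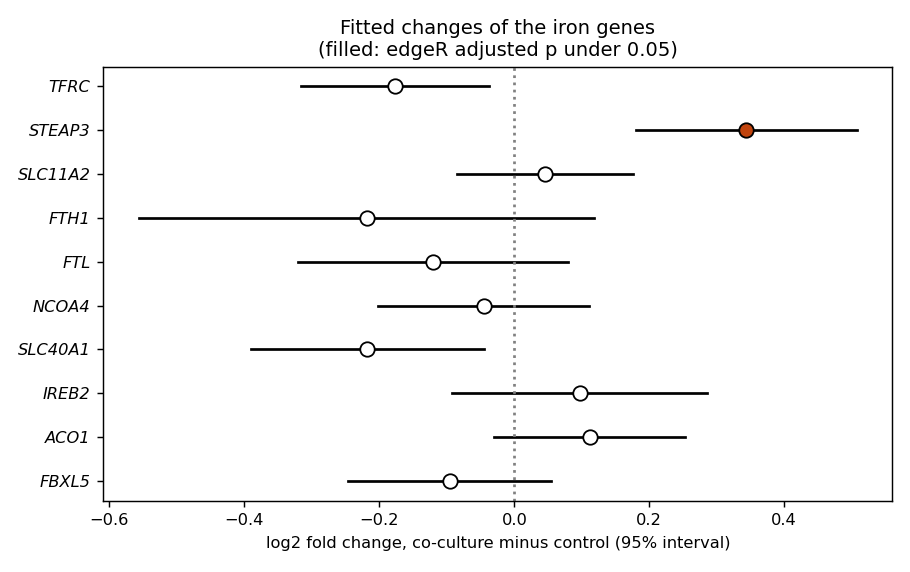
Log2 fold change of each gene, co-culture minus control, as a point with its 95% interval from edgeR's quasi-likelihood fit; the filled point has an adjusted p under 0.05. STEAP3 is the filled point at 0.34, the intervals of TFRC and SLC40A1 lie below 0, and the other 7 include 0.

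Replicate spread differed between the genes. FTH1 varied most in co-culture, with a coefficient of variation of 21.3%, against 8.57% in controls. TFRC varied least in co-culture, at 0.298%, against 6.44% in controls. IREB2 varied most in controls, at 12.3%, against 3.77% in co-culture. The ratio of TFRC to FTH1 in CPM was 1.62, 1.15 and 1.06 in co-culture and 1.06, 1.19 and 1.37 in controls. These ranges overlapped, and the highest ratio belonged to co-culture library 1, the library low in FTH1. Reads that FTH1 shares with its pseudogenes are not counted, so the ratio may be too high.

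**Figure D4:**
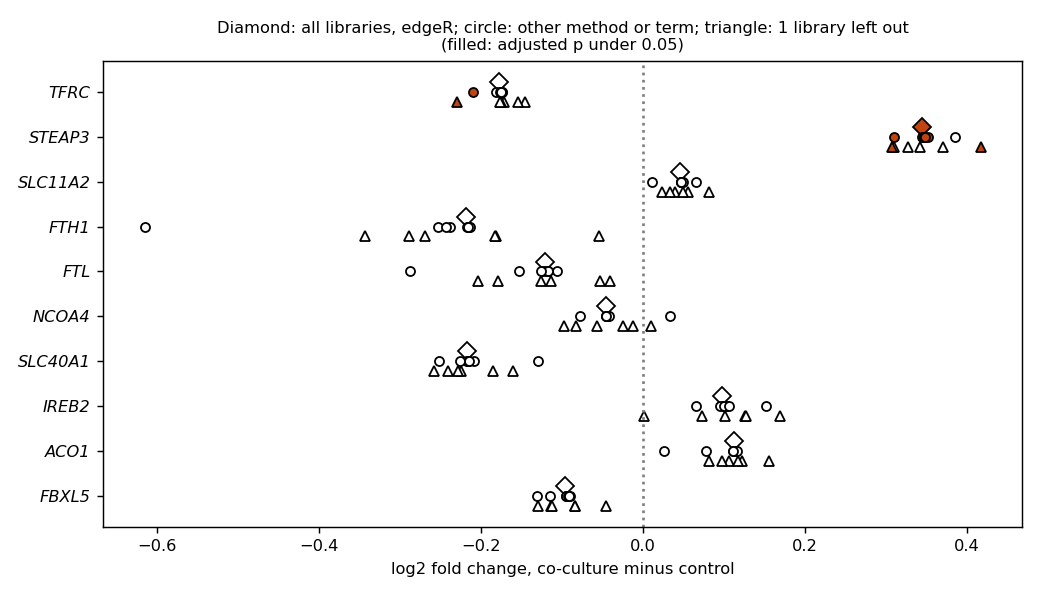
Log2 fold change of each gene under the edgeR fit with all libraries (diamonds), 8 other methods or terms (circles) and 6 fits with 1 library left out (triangles); filled symbols have an adjusted p under 0.05. STEAP3 stays between 0.31 and 0.42 while its symbols are filled in some settings only, and FTH1 has the widest range, from -0.61 to -0.05.

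By likeness over the 6 libraries, the profile of TFRC in log2 CPM was closest to AKIRIN1, MCC and HERC6 (Pearson r 0.995, 0.994 and 0.994) among 11646 other genes with a mean of at least 5 CPM. FTH1 was closest to PTMA, CKS1B and KANK1 (r 0.997, 0.994 and 0.993). With 6 libraries and so many genes such values describe these libraries only.

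The wider iron network was read from a list of 99 further genes, of which 98 were found in the files, 5 of them under an older symbol, and 83 had enough reads to be tested. Of the 83, 6 passed an adjusted p of 0.05, 2 higher and 4 lower, which is 7.23% against the 4.83% of all genes. Their median log2 fold change was -0.05. The groups did not overlap for 10 genes that were higher and 23 that were lower in co-culture, or 39.8% of the 83, against 14.3% higher, 15% lower and 29.3% in either direction over all genes. The 15 untested genes, among them HAMP, TF, TFR2, CP, HEPH and ALAS2, stayed at or under 0.782 CPM. FTMT had 0 reads, which allows up to 0.0838 to 0.156 CPM depending on the library, for counting error only. BOLA2 was also listed at 0, but it has a near-identical copy, so reads shared by both may not have been counted and the 0 sets no limit on it.

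Of the haem genes, 2 of synthesis passed the threshold lower and 2 of transport higher. Over all tested genes 2.17% passed lower and 2.66% higher. ALAS1, the enzyme that sets the rate of haem synthesis, gave 34.2, 34.6 and 37.0 CPM in co-culture and 45.4, 42.6 and 48.1 CPM in controls. It fell by 0.36 on the log2 scale (SE 0.07, edgeR adjusted p 0.0216). UROS, which closes the porphyrin ring, gave 30.3, 31.1 and 30.3 against 41.4, 38.0 and 41.1 CPM. It fell by 0.40 (SE 0.07, edgeR adjusted p 0.0118). The other 6 tested genes of the synthesis list did not pass, and the list's median was -0.04.

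Among 12 tested genes of haem transport and breakdown, 2 passed, both higher, against 4.83% of all tested genes. ABCB6, a porphyrin transporter, gave 27.2, 29.7 and 28.2 CPM in co-culture and 23.0, 19.4 and 20.0 CPM in controls, higher by 0.45 on the log2 scale (SE 0.09, edgeR adjusted p 0.0186). FLVCR1, described as a haem exporter and a choline carrier, gave 69.5, 69.6 and 68.4 against 58.8, 58.3 and 55.6 CPM, higher by 0.26 on the log2 scale (SE 0.06, edgeR adjusted p 0.0330). In both genes every co-culture library was above every control. The median of this list was -0.01, with 6 genes positive and 6 negative.

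In the mitochondria, 1 of 22 tested genes passed, against 4.83% of all tested genes. IBA57, needed for late iron-sulphur cluster assembly, gave 17.0, 16.4 and 19.2 CPM in co-culture and 21.8, 24.9 and 27.7 CPM in controls. It fell by 0.50 on the log2 scale (SE 0.10, edgeR adjusted p 0.0249). The list's median was -0.10, with 16 of 22 genes negative. Over the whole list of other iron genes 52 of 83 were negative, and over all tested genes 7353 of 14582. FDX2 (listed as FDX1L), a ferredoxin of cluster assembly, was next after IBA57 at -0.27 (edgeR adjusted p 0.104). Of 10 cytosolic assembly genes none passed, with the scaffold genes NUBP2 and NUBP1 at -0.24 and -0.22 (edgeR adjusted p 0.0881 and 0.140).

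From the list of iron and lipid peroxide genes, 1 of 10 tested passed, against 4.83% of all tested genes. LPCAT3, which places polyunsaturated fatty acids in phospholipids, gave 38.3, 33.9 and 38.4 CPM in co-culture and 45.6, 45.2 and 47.3 CPM in controls. It fell by 0.32 on the log2 scale (SE 0.07, edgeR adjusted p 0.0331), and 15.0% of the reads over it lay on the forward strand. SLC3A2, the heavy chain of the cystine carrier, stood at -0.28 (edgeR adjusted p 0.0533).

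None of the other import, storage, export and sensing genes passed. STEAP2, a relative of STEAP3, was at 0.22 and the endocytic receptor LRP2 at -0.18 (edgeR adjusted p 0.121 and 0.146). The iron chaperones PCBP1 and PCBP4 were at -0.14 and 0.20 (edgeR adjusted p 0.177 and 0.299). HEPHL1, a copper ferroxidase at 0.370 CPM in co-culture and 0.954 in controls, had a log2 fold change of -1.31, and BMP6, a ligand that induces hepcidin in liver, one of 0.37 (edgeR adjusted p 0.0548 and 0.0647). Of the reads over BMP6, 56.3% lay on the forward strand, which was not the strand counted. EPAS1, whose mRNA is also known to carry an IRE, and RBX1, a subunit of the ligase that FBXL5 serves, were at -0.19 and -0.17 (edgeR adjusted p 0.0997 and 0.239).

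**Figure D5:**
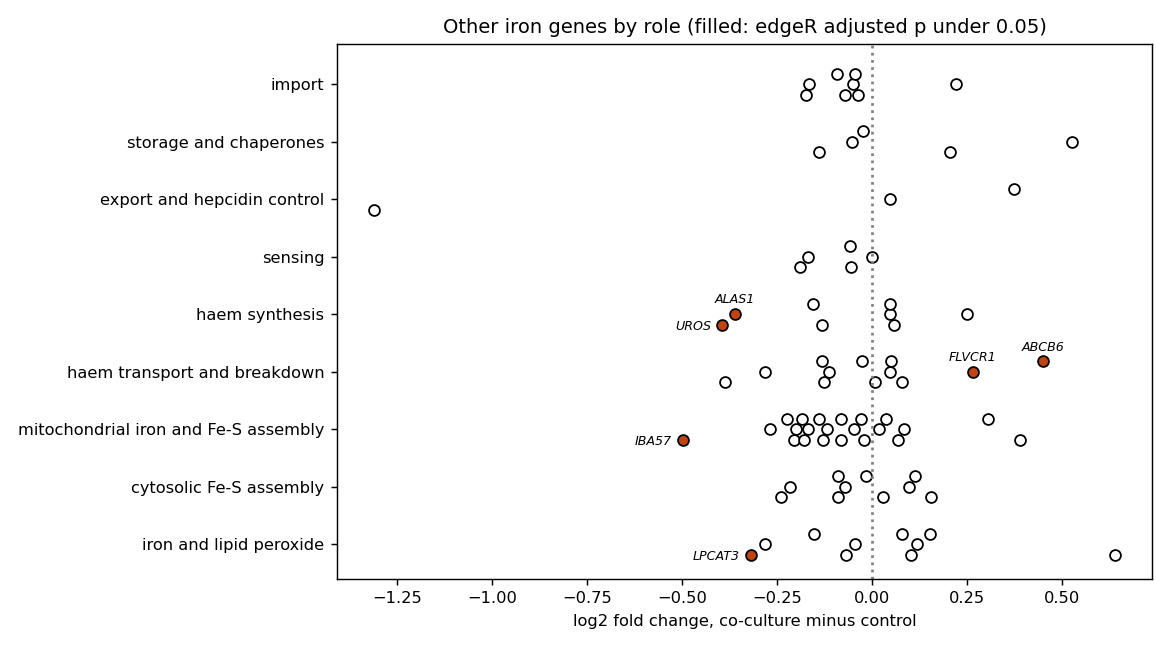
Log2 fold changes, co-culture minus control, of the 83 tested iron genes outside the 10, in rows by role, with filled points for an edgeR adjusted p under 0.05. UROS, ALAS1, IBA57 and LPCAT3 are filled to the left of 0 and FLVCR1 and ABCB6 to the right.

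Whether these 6 genes passed the threshold also depended on single libraries, as did the number called over all genes. Without co-culture library 1, without co-culture library 2 and without control 2 none of the iron genes passed, and over all genes 123, 74 and 65 did, or 0.831%, 0.503% and 0.44% of those tested. The groups did not overlap for any of the 6, so their sign could not turn in those 3 fits. The log2 fold changes were -0.34, -0.35 and -0.40 for ALAS1, -0.39, -0.41 and -0.43 for UROS, and 0.26, 0.26 and 0.27 for FLVCR1. ABCB6 stood at 0.48, 0.42 and 0.40, IBA57 at -0.47, -0.45 and -0.50, and LPCAT3 at -0.34, -0.26 and -0.33. Without control 1 the number of iron genes called was 22, 6 higher and 16 lower, or 25.9% of the 85 tested, against 3069 or 20.8% of all genes. In the fit with the strand class, where only co-culture library 1 carries the comparison, none of the iron genes and 29 of all genes passed. There ALAS1, UROS, ABCB6, FLVCR1, IBA57 and LPCAT3 stood at -0.41, -0.41, 0.39, 0.27, -0.55 and -0.26 on the log2 scale.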

How the data were processed

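Stranded mRNA libraries of 6 HEK293 samples were analysed from deposited raw counts of reads per gene, 1 file per sample. STAR 2.53a, FastQC and the build hg18 are named in the submitters' processing notes, and the annotation release is not given in the sources used here. The authors' files hold counts without strand and on each strand, and the reverse-strand column was used. The 4 summary lines were left out: unmapped reads (1.22% to 1.67%), multimapping reads (6.48% to 8.42%), reads outside genes (14.8% to 17.7%) and ambiguous reads (0.835% to 1.01%). Genes that share reads with copies are undercounted.

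A group-only model was fitted to all genes with edgeR 4.0.16 under R 4.3.3, after filterByExpr at a minimum count of 10, with TMM scaling and a robust quasi-likelihood F test with Benjamini-Hochberg adjustment. SEs are the log2 fold change over the root of F, and 95% intervals use the fit's degrees of freedom. The common biological coefficient of variation was 0.0835. The script was tested on simulated counts. Alternatives used DESeq2 1.42.0, limma 3.58.1 and other terms. No pair of libraries within a group agreed within counting noise (chi-square per degree of freedom 4.73 to 18.5).

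Members and lists were chosen with earlier results of these data known, as was the strand class term. All 10 members were named, with, from each list of other iron genes, those past the threshold and the 2 with the smallest p, and, for TFRC and FTH1, the 3 most correlated genes. Older symbols were matched through RefSeq synonyms of GRCh38.p14. Transcript lengths and IREs came from GENCODE release 29, on GRCh38.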

Additional observations from a re-analysis of the deposited data

How the results depend on the processing

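The calls of STEAP3, TFRC and the other iron genes changed with the processing, and the sign of NCOA4 turned in 2 of 14 settings. FTH1 was not called in any of them, at log2 fold changes from -0.61 to -0.05. The causes were not tested. Of the 10 genes, 1 was called; the number was 2 with total counts and 0 with the replicate block or the strand class term, and it ran from 0 to 2 when 1 library was left out. Of the other iron genes, 6 were called; the number was 0 with the replicate block or the strand class term and ran from 0 to 22 when 1 library was left out. Over all genes 704 were called, 164 with the replicate block, 29 with the strand class term and 65 to 3069 when 1 library was left out. With total counts the split over all genes was 310 higher and 572 lower, against 388 and 316. The deviations of same-numbered libraries from their group means had correlations of -0.04, -0.09 and -0.09. Deviations centred within groups of 3 cannot decide whether same-numbered libraries were paired, and the labels do not say. With the replicate block STEAP3 stood at 0.35 (edgeR adjusted p 0.0704). The DESeq2 scaling or test, limma-voom, no filter and unstranded counts each left 1 of the 10 genes called. Each of the 10 genes had at least 557 reads in every library, while 15 iron genes, at 0.782 CPM or less, had too few counted reads to be tested.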
